A study of Mus musculus with 24 samples.

Results

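The H3K4me3 peaks of HOXA9-immortalized mouse bone marrow cells carrying an IDH1 R132H vector were compared without treatment and with vitamin C. All intervals in the deposited H3K4me3 list of each condition were taken, 45713 from the untreated library and 48385 from the vitamin C library. These 94098 peaks are part of 400953 peaks and regions listed over all assays of the series, which holds 24 samples with 1 library in each group. HOXA9 belongs to the homeobox family and sustains the growth of myeloid progenitors in culture, and IDH1 R132H is a mutant isocitrate dehydrogenase that makes 2-hydroxyglutarate. Both conditions share the HOXA9 immortalization, the IDH1 R132H vector and a medium with IL-3, IL-6 and SCF. Treated cells received vitamin C to 0.345 mM on 3 occasions, at 0, 24 and 48 h, before collection at 72 h. For untreated cells the labels record no collection time. The labels name 1 cell type for both conditions and no separate clones, animals or cultures, and there was 1 ChIP-seq library and 1 RNA-seq library in each condition. The values therefore compare libraries, no difference could be tested against a replicate spread, and no p-value was calculated between conditions.

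Trimethylation of lysine 4 of histone H3 marks the starts of active genes and of many CpG-rich starts that are silent or poised. It is written by the COMPASS family of complexes around SETD1A, SETD1B and the KMT2 proteins, of which CXXC1 and the KMT2A and KMT2B proteins bind unmethylated CpG. It is removed by the KDM5 demethylases, which like the TET enzymes are dioxygenases that use iron and 2-oxoglutarate. In these libraries the mark stayed at the same gene starts. Of the 17492 protein-coding genes with a listed start, 9712 had a peak within 1 kb of a start in both libraries, 97 in the untreated library alone and 138 in the vitamin C library alone. The lists differed mainly in narrow peaks far from starts, and in how far the mark spread over a small number of starts.

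The sequences below are the 250 bases upstream of the start of 5 genes on which these differences turn. The mark lay over a wider stretch with vitamin C at Igsf6, Abca13, C3ar1 and Ms4a2. Fos is shown beside them because its RNA level differed most among the named genes while its peaks covered nearly the same length. The sequences come from RefSeq on GRCm38.p6, the same assembly as mm10, and read 5′ to 3′ on the strand of the gene. Capitals mark each CG dinucleotide, which reads the same on both strands and does not overlap itself. Of all 17492 genes, 92.7% hold 1 or more CG in these 250 bases, and the median is 10.
Igsf6, chr7:121074531-121074780, minus strand: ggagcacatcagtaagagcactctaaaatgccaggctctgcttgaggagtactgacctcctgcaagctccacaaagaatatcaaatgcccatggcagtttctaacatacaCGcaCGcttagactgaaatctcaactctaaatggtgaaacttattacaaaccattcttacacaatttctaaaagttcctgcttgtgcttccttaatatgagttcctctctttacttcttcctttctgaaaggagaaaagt
Abca13, chr11:9191692-9191941, plus strand: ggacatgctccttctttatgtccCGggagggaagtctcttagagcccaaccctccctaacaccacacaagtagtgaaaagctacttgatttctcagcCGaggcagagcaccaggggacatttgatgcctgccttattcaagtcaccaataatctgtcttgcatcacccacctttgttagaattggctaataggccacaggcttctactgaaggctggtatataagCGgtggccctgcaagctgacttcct
C3ar1, chr6:122856158-122856407, minus strand: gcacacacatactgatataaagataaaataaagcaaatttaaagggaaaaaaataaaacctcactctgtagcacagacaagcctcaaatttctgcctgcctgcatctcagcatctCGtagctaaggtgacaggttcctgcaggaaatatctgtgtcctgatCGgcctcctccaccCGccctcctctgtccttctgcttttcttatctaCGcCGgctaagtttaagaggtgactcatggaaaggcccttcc
Ms4a2, chr19:11623720-11623969, minus strand: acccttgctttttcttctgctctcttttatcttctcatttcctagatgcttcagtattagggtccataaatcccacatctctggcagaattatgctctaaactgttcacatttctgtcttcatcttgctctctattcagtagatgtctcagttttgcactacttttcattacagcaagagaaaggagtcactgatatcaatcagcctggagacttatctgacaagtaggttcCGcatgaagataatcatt
Fos, chr12:85473640-85473889, plus strand: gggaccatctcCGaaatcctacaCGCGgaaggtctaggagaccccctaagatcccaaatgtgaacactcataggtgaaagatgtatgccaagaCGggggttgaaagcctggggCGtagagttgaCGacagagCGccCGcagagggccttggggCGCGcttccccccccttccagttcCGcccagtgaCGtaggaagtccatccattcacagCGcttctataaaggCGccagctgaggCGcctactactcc
Fos holds 15 CG in this stretch, C3ar1 5, Abca13 3, Igsf6 2 and Ms4a2 1. The stretch of Fos is the richest of the 5 in CG, and the other 4 lie below the median of all genes.

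The series asks, by its title, what vitamin C does to the epigenome where IDH1 is mutated, and for H3K4me3 the first measure is the number and width of the peaks. The vitamin C list held 2672 more peaks, a ratio of 1.06. Its peaks were narrower, with a median of 769 bp (quartiles 379 to 1522) against 837 bp (400 to 1636) untreated. The covered length was nearly the same, 54.75 Mb untreated and 54.96 Mb with vitamin C. Of these bases 48.6 Mb were covered in both libraries, 88.8% of the untreated and 88.4% of the vitamin C length. More peaks of smaller width covered nearly the same length of genome.

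A peak was called shared where it overlapped the other list by at least 1 bp. Of the untreated peaks 41356 were shared, 90.5% (95% interval 90.2 to 90.7), and of the vitamin C peaks 41490, 85.8% (85.4 to 86.1). The intervals here and below are exact Clopper-Pearson intervals and cover counting error only. They take peaks as independent, which neighbouring peaks are not, so they may be too narrow. The untreated library alone had 4357 peaks and the vitamin C library alone 6895, so single-library peaks made up 2538 of the 2672 extra peaks with vitamin C. Single-library peaks had a median width of 261 bp untreated and 274 bp with vitamin C, while shared peaks had medians of 949 and 923 bp. They covered 1.33 Mb and 2.28 Mb, a small part of either list.

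The share of shared peaks went with width and with the rank of the peak. In the narrowest 10% of each list 60.0% of untreated and 48.3% of vitamin C peaks were shared, and in the widest 10% all were. The authors' value per peak, a p-value or q-value of at most 1e-05, gave a like order. In the weakest 10% by that value 56.3% of untreated and 46.6% of vitamin C peaks were shared, against 100% in the strongest 10% of both lists. The depth of the ChIP-seq libraries was unknown and its part in the number of narrow peaks was not tested.

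**Figure D1:**
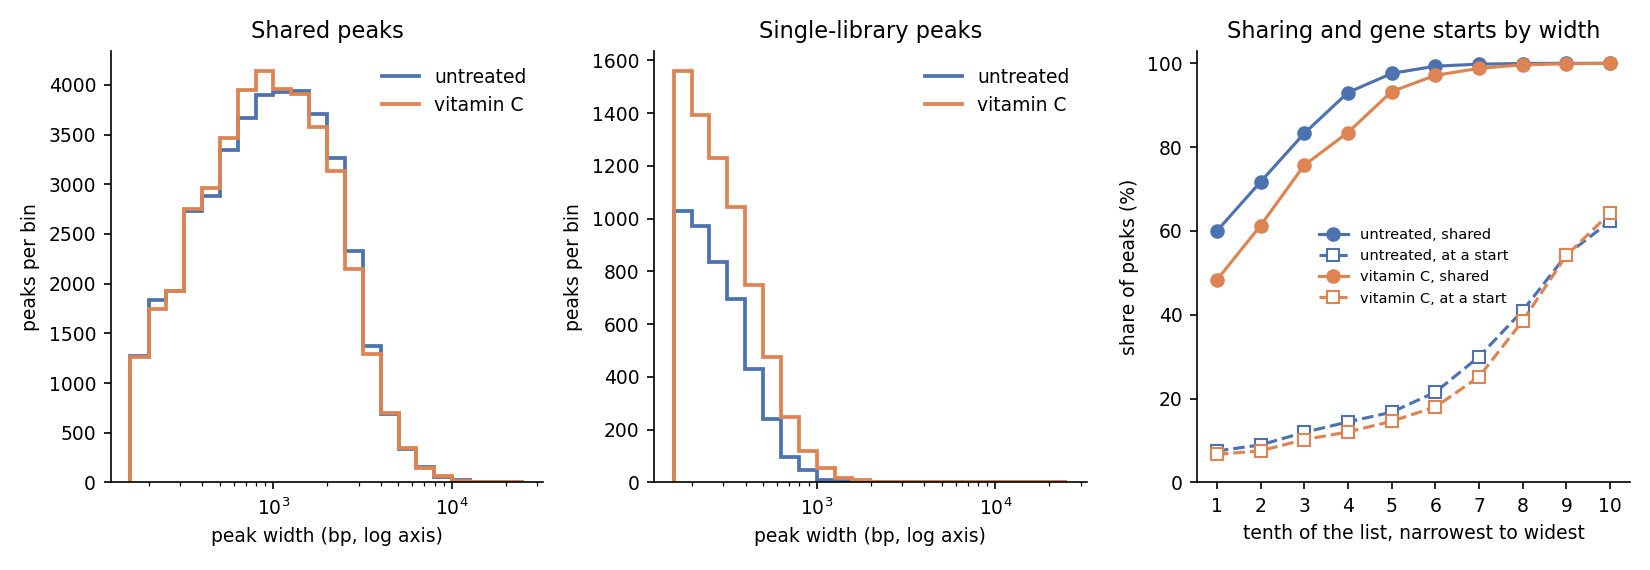
Number of shared (left) and single-library (middle) H3K4me3 peaks by width on a log axis in bp, and the percentage of peaks shared or lying within 1 kb of a protein-coding start in 10 equal classes of width (right), for the untreated (blue) and vitamin C (orange) libraries. Shared peaks have nearly the same widths in both libraries, single-library peaks are narrow and more numerous with vitamin C (6895 against 4357), and the widest class is fully shared.

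Where a peak of one list met a single peak of the other, the widths followed each other. There were 34127 such pairs, with a median of 932 bp untreated and 910 bp with vitamin C. The median difference was −13 bp (quartiles −128.5 to 89), 54.0% of the pairs were narrower and 45.7% wider with vitamin C. A difference in width of 2-fold or more was seen in 3.31% of pairs in the wider direction and in 2.71% in the narrower direction. Across the pairs Spearman's rho of the widths was 0.93, a description over peaks that share 2 libraries. Peaks cut into pieces in the other list were about as frequent each way, with 2521 untreated peaks over 2 or more vitamin C peaks and 2450 vitamin C peaks over 2 or more untreated peaks.

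The ends of both lists named individual domains. The strongest value in both libraries belonged to the peak at Hjurp, a chaperone of centromeric histone H3, 3014 bp wide untreated and 3062 bp with vitamin C. The widest untreated peak, 20244 bp, lay at Bmp2k, a kinase gene, and vitamin C peaks, the widest of them 14330 bp, covered 19835 bp of it. The widest vitamin C peak, 15992 bp, lay at St8sia4, a sialyltransferase gene, where the untreated peak was 17281 bp and vitamin C peaks covered 17134 bp of that. Meis1, a homeobox partner of HOXA9, carried an untreated peak of 14539 bp. The domains at Bmp2k and St8sia4 were thus covered almost whole in both libraries, in more than 1 piece with vitamin C.

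Peaks were then placed against gene starts. Within 1 kb of a protein-coding start lay 12070 shared untreated peaks, 29.2% (28.7 to 29.6), and 11875 shared vitamin C peaks, 28.6% (28.2 to 29.1). Among single-library peaks the numbers were 213 untreated, 4.89% (4.27 to 5.57), and 283 with vitamin C, 4.10% (3.65 to 4.60). Single-library peaks were therefore rarer at starts in both libraries, by more than counting error. Narrow peaks as a whole were rarer there too: of shared peaks of at most 400 bp, 10.5% untreated and 10.3% with vitamin C lay at a start. Peaks at a start were wide, with medians of 1685 and 1695 bp against 605 and 569 bp elsewhere, and they held 42.7% and 42.3% of the covered bases.

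Many single-library peaks lay inside genes or far from any listed start. A gene span held 56.0% of the untreated and 58.8% of the vitamin C single-library peaks, against 65.5% and 65.3% of the shared ones. More than 50 kb from the nearest listed start lay 38.3% of the untreated and 35.6% of the vitamin C single-library peaks on chromosomes with listed starts, and 26.2% of the shared peaks of either list. No starts were listed for chromosome 18. The widest peak found with vitamin C alone, 2360 bp, lay on chromosome 14, 15163 bp from the start of Gm17778. Peaks of 1 library alone could also gather at 1 gene: Susd1 and Gna12 each had 8 nearby with vitamin C and 0 untreated, and Fcgr3, an IgG receptor gene, had 7 and 0. The RNA of these 3 genes was close between libraries, at 26.5 and 26.2 RPKM for Susd1, 114 and 111 RPKM for Gna12, and 153 and 166 RPKM for Fcgr3. Susd1, Gna12 and Fcgr3 were chosen after their values were seen.

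The gene starts were next set against the RNA of the same condition. RPKM is the read count scaled by gene length and by the reads of the library, from RNA-seq tables of 86804487 counts untreated and 111453443 with vitamin C. In these bulk samples fewer cells of a type and less RNA per cell cannot be told apart. The share of genes with a peak at a start went from 7.28% untreated and 7.72% with vitamin C at 0 RPKM to 93.3% and 93.4% between 1 and 10 RPKM. At 100 RPKM or more it was 99.4% in both. Genes marked in both libraries had a median of 11.98 RPKM untreated and 11.99 RPKM with vitamin C, and 84.5% of those with RNA values reached 1 RPKM in 1 or both libraries. Of genes marked untreated alone 11.96% did so, of genes marked with vitamin C alone 9.16%, and of genes marked in neither 4.21%. Starts that carried a peak in 1 library were mostly starts of genes with little RNA, with untreated medians of 0.00566 RPKM where marked untreated alone and 0.0200 RPKM where marked with vitamin C alone. Of these 235 genes 46 had covered bases in both libraries within 2 kb.

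**Figure D2:**
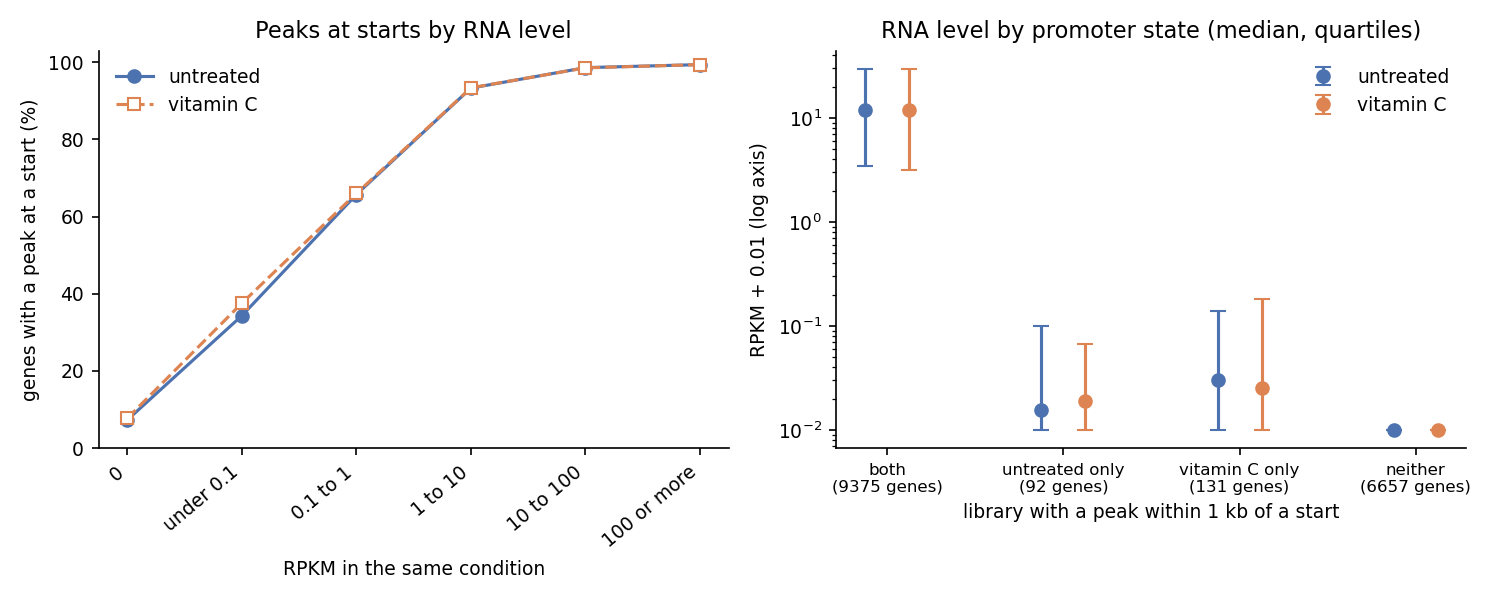
Left, percentage of protein-coding genes with an H3K4me3 peak within 1 kb of a start by RPKM in the same condition. Right, median and quartiles of RPKM plus a small constant on a log axis, for genes with a peak at a start in both, 1 or neither library. The curves of both conditions lie on each other, from 7.28% and 7.72% at 0 RPKM to 99.4%, and genes marked in 1 library sit far below the medians of genes marked in both (11.98 and 11.99 RPKM).

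Mark and RNA differed at some genes in both directions. At 1452 genes a peak stood at a start in both libraries while RNA stayed under 1 RPKM in both, with medians of 1169 and 1130 covered bp within 2 kb of the start. Cdkl4, a kinase gene, was covered over all 4001 bp of this window in both libraries at 0.927 and 1.00 RPKM, and Rag2, a recombinase gene of lymphocytes, over 2531 and 2625 bp at 0 RPKM. At 280 genes with 1 RPKM or more no peak lay at a listed start in either library. Of these 175 had covered bases elsewhere within 2 kb of the gene in both libraries, and 97 had none in either. Hoxa9 had the highest RNA level among the 280, 3062 RPKM untreated and 1487 RPKM with vitamin C. Reads from the HOXA9 used for immortalization were not separated from those of the gene itself. Its nearest peaks lay 1178 to 1839 bp downstream of the listed start untreated and 1209 to 1843 bp with vitamin C. Gzmb, the protease granzyme B of cytotoxic cells, stood at 15.5 and 76.8 RPKM with 0 covered bp in both libraries.

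The change in RNA was then read by promoter state. It is given as log2 of (RPKM with vitamin C + 0.5) over (RPKM untreated + 0.5), for genes at 1 RPKM or more in 1 or both libraries. Among the 8226 such genes with a listed start 191 were at least 2-fold higher with vitamin C, 2.32% of those measured, and 154 at least 2-fold lower, 1.87%. Genes marked in both libraries had a median of −0.04, with 159 higher and 137 lower of 7923. Of the 12 measured genes marked with vitamin C alone 4 were higher and 0 lower, with a median of 0.26. Over the 5 of them at 5 RPKM or more the median was 1.69. Among these 5 genes, 4932438H23Rik, Acta2, Gdf15 and Nup160 had 946, 268, 1300 and 753 covered bp within 2 kb of the start untreated. They count as marked with vitamin C alone only by the 1 kb limit. Of the 4 higher genes this holds for 4932438H23Rik and Gdf15. Of the 11 marked untreated alone 2 were higher and 1 lower, with a median of 0.02. These groups are small, and single-library states cover 6 of the 191 higher genes and 1 of the 154 lower genes.

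Cma1 and Ms4a2, both genes of mast cells, show the range among single-library starts. Cma1 encodes the protease chymase and had 0.359 RPKM in the untreated library and 14.6 RPKM in the other, 40.8-fold higher (28.1 to 61.6, from the reads). Its only peak near the start lay upstream, from −1995 to −624 bp untreated and from −1995 to −1215 bp with vitamin C. The peak was thus closer to the start in the library with less RNA. Ms4a2 encodes the beta chain of the high-affinity IgE receptor and stood at 1.23 and 5.78 RPKM. It had peaks from 283 to 521 bp and from 649 to 945 bp downstream of its start with vitamin C, and 0 covered bp within 2 kb of the start untreated.

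**Figure D3:**
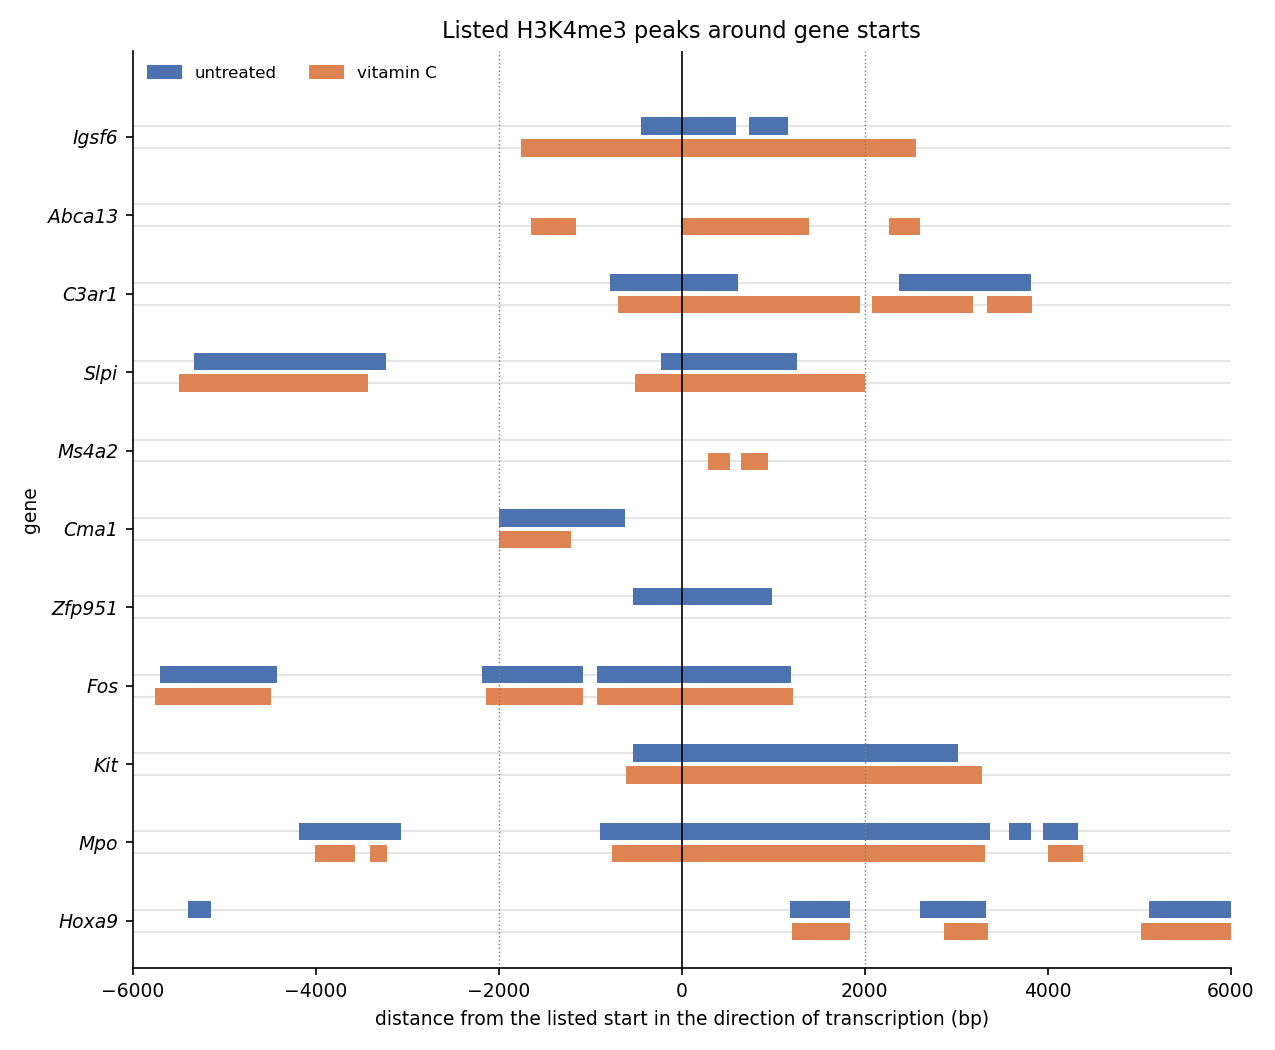
Listed H3K4me3 peaks within 6 kb of the start of 11 genes, drawn to scale in bp in the direction of transcription, with untreated peaks in blue above vitamin C peaks in orange; dotted lines mark the 2 kb window. The vitamin C peaks extend further at Igsf6, C3ar1 and Slpi and appear at Abca13 and Ms4a2, and a peak at Zfp951 is listed untreated alone. Fos, Kit and Mpo are covered nearly alike within the 2 kb window, while peaks of Mpo differ outside it.

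A finer measure of the mark at a gene is the number of peak-covered bases within 2 kb either side of its start. It gives the extent of the listed peaks and not their height, so the amount of the mark was not compared. Over the 8226 measured genes the median was 2519.5 bp untreated and 2492.5 bp with vitamin C, and the median difference was −11 bp. A gain of 500 bp or more with vitamin C was found at 114 of these genes, 1.39%, and a loss of that size at 101, 1.23%. Of the 191 genes with 2-fold higher RNA 19 had such a gain, 9.95%, and 7 such a loss, 3.66%. Of the 154 genes with lower RNA 2 had a gain and 2 a loss. The median difference was 6 bp for the higher and 0 bp for the lower genes. Across 7981 genes with cover in 1 or both libraries, which share the same 4 libraries, Spearman's rho of the difference in cover and the log2 change in RNA was 0.06.

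Read from the side of the mark, the genes that gained 500 bp or more held 19 with 2-fold higher RNA, 16.7% of the 114, beside 2.32% of all measured genes, and 2 with lower RNA. Their median log2 change was 0.16, and 67.5% were above 0. Genes that lost 500 bp or more held 7 with higher RNA, 6.93%, and 2 with lower RNA, 1.98%, with a median of −0.03. With a window of 5 kb the share of higher genes was 8.04% among 448 genes that gained cover and 3.66% among 355 that lost it.

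The 10 genes with the greatest gains in cover are described by the best known of them. Igsf6, an immunoglobulin superfamily gene of myeloid cells, had 1452 covered bp untreated and 3756 bp with vitamin C, where 1 peak of 4319 bp took the place of peaks of 1034 and 418 bp. Its RNA stood at 2.58 and 8.03 RPKM, 3.11-fold higher (2.79 to 3.48). C3ar1, the receptor of the complement fragment C3a, had 1400 and 2638 covered bp, and 4.98 and 19.0 RPKM. At both genes cover and RNA were higher with vitamin C. Elane, the neutrophil elastase of primary granules, gained cover too, from 1525 to 2863 bp, while its RNA was 47.5 and 38.6 RPKM. Abca13, a transporter gene, had 0 and 1893 covered bp at 0.0428 and 0.198 RPKM. Mefv, the pyrin inflammasome gene, had 0 and 1421 bp at 0.106 and 0.177 RPKM, and Padi4, a histone citrullinase of granulocytes, 0 and 1161 bp at 1.67 and 2.33 RPKM. Clec7a, the beta-glucan receptor Dectin-1, had 503 and 2001 covered bp and no RNA value here. Abca13, Mefv and Padi4 gained a peak at the start while their RNA stayed low in both libraries.

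The 19 genes with a gain of 500 bp or more and 2-fold higher RNA were Adora3, Aqp9, C3ar1, Ccl6, Ccr2, Emp1, F13a1, Fxyd4, Icam1, Igsf6, Il4, Me1, Mmp27, Ms4a2, Myadm, Rnf128, Sytl3, Tarm1 and Tlr2. This set was chosen after the values were seen. Ccl6, a chemokine gene, had 390 and 1033 covered bp at 3.36 and 25.4 RPKM, and Ccr2, a chemokine receptor of monocytes, 2583 and 3102 bp at 38.9 and 85.4 RPKM. Tlr2, a receptor of bacterial lipoproteins, had 1626 and 2476 bp at 4.47 and 11.03 RPKM. Aqp9, a channel for water and glycerol, had 2419 and 3396 bp at 18.2 and 71.4 RPKM. At each of these 4 genes peaks were listed at the start in both libraries and covered more bases with vitamin C. Fxyd4, a regulator of the sodium pump, had the largest RNA difference of the set, 0.212 and 9.33 RPKM (44.0-fold, 27.7 to 74.6), with 1634 and 2278 covered bp.

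The 10 greatest losses were read in the same way. Zfp951, a zinc finger gene, had a peak of 1519 bp at its start untreated and none with vitamin C, at 1.26 and 1.70 RPKM. Ak1, the adenylate kinase, had 1136 and 0 covered bp at 5.15 and 6.42 RPKM, and Slc43a1, an amino acid transporter gene, 1334 and 0 bp with RNA under 0.1 RPKM in both. At Zfp951 and Ak1 the untreated peak is the only cover near the start, and the RNA was slightly higher without it. Lce6a had 3767 and 2266 covered bp at 27.3 and 45.5 RPKM, and Scin, an actin-severing protein, had 1144 and 175 bp at 28.6 and 79.0 RPKM. Morc2a, also among the 10 greatest losses, had 3627 and 2594 covered bp, and its RNA was lower with vitamin C, at 28.3 and 20.2 RPKM. The 2 genes with a loss of 500 bp or more and RNA at least 2-fold lower were Igf2bp3 and Wfdc17. These 2 genes and Scin were chosen after their values were seen. Igf2bp3, an RNA-binding protein of fetal haematopoiesis, had 1605 and 682 covered bp and 634 and 0 reads. Wfdc17 had 2907 and 2354 bp at 262 and 91.6 RPKM.

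**Figure D4:**
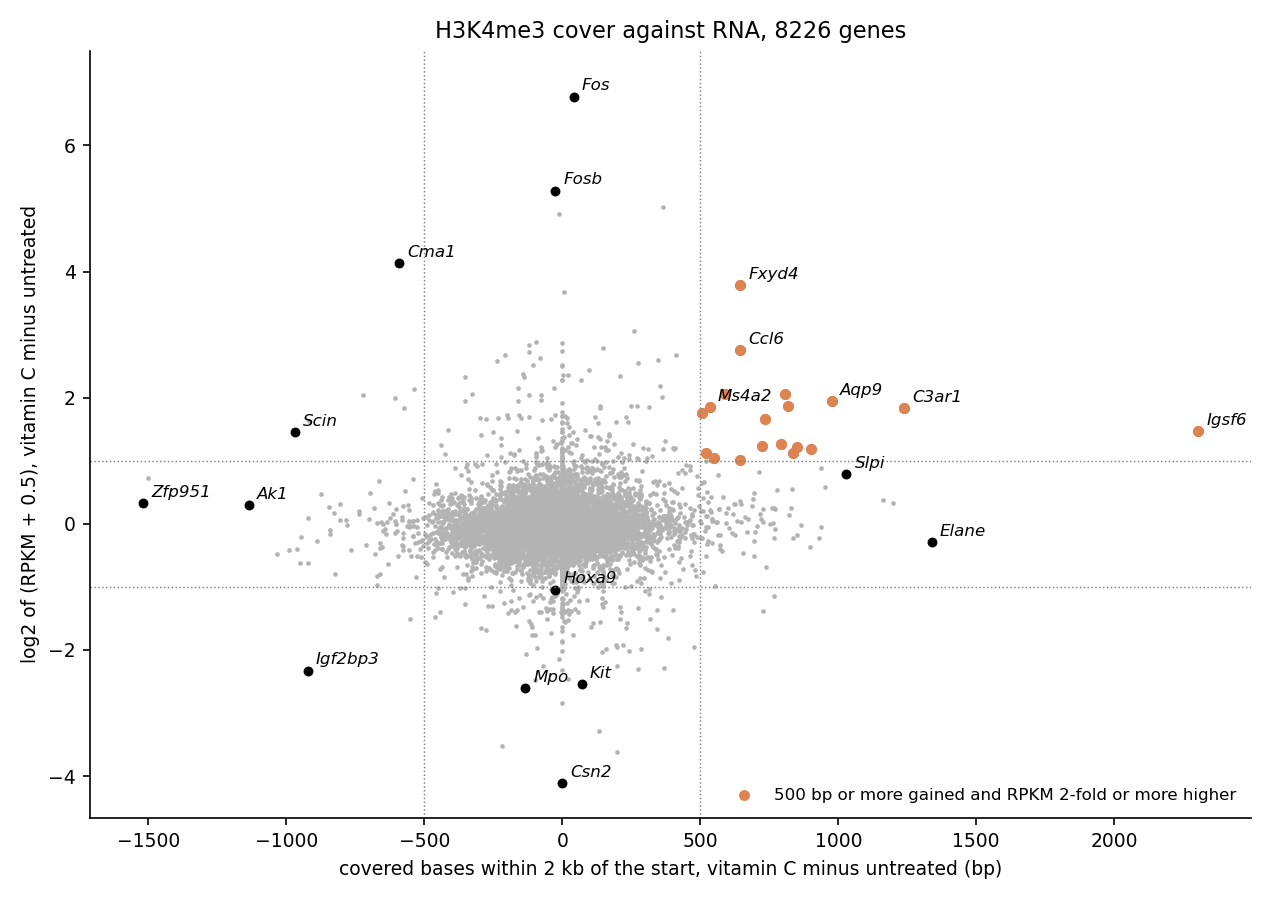
Difference in peak-covered bases within 2 kb of the start (bp, vitamin C minus untreated) against the log2 change of RPKM + 0.5 for 8226 genes, with dotted lines at 500 bp and at 2-fold. The 19 orange genes gained at least 500 bp and had RNA at least 2-fold higher, while Fos, Fosb, Kit and Mpo, with large RNA differences, lie near a cover difference of 0.

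The sequence upstream of the start differed between these sets, as the promoters shown above do. Of all 9947 genes with a peak at a start in 1 or both libraries the median was 16 CG in the 250 upstream bases, and 12.8% held 5 or fewer. Of 163 genes that gained 500 bp or more, with or without RNA, the median was 10 and 36.2% held 5 or fewer. Of 157 that lost as much it was 15 and 26.1%. Starts with few CG made up a larger share of both sets than of all marked genes. Genes with 5 or fewer CG carried a peak in 19.2% of cases, those with 6 to 15 in 70.5% and those with 16 or more in 87.6%. Among measured genes of these 3 classes a gain of 500 bp was found in 3.15%, 1.20% and 1.08%, and 2-fold higher RNA in 6.97%, 1.94% and 1.45%. The part of CG content in the link between cover and RNA was not tested.

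Among the 10 genes with the largest positive RNA difference, 8 had a listed start, and their cover moved both ways or hardly at all. Fos, a subunit of AP-1, had 0.187 RPKM in the untreated and 74.5 RPKM in the vitamin C library, and 3032 and 3073 bp were covered around its start. Fosb, another AP-1 subunit, stood at 0.205 and 26.9 RPKM with 2597 and 2571 covered bp. Dusp1, a phosphatase of MAP kinases, stood at 5.00 and 69.8 RPKM with 2793 and 2800 bp. At these 3 starts the cover differed by 41, −26 and 7 bp. Of the others, Clec11a, a growth factor gene, differed by −13 bp, Acod1, the itaconate-producing decarboxylase, by 258 bp, and Cxcl2, a neutrophil chemokine, by 365 bp at 0.764 and 40.4 RPKM. Fxyd4, with a difference of 644 bp, and Cma1, with −591 bp, passed 500 bp in opposite directions. Egr1, a zinc finger transcription factor without a listed start, stood at 0.987 and 88.4 RPKM, and 2285 and 2348 bp were covered over the gene and 2 kb on each side. Of the 21 immediate early genes measured 17 were at least 2-fold higher, beside 2.36% of all 10332 measured genes with a symbol, and 0 were lower. All 17 with a listed start had a peak in both libraries, and their cover differed by −352 to 327 bp with a median of 0. At Fosl2, Junb and Zfp36 all 4001 bp of the window were covered in both libraries, so no gain could show there.

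Genes with lower RNA were covered as follows. Kit, the receptor of stem cell factor, stood at 32.1 and 5.07 RPKM with 2538 and 2608 covered bp. Mpo, the myeloperoxidase of primary granules, stood at 796 and 131 RPKM with 2899 and 2765 bp. Gfi1, a transcriptional repressor required in granulocyte development, stood at 52.0 and 18.4 RPKM with all 4001 bp covered in both. Irf8, a transcription factor of monocytes, stood at 8.58 and 2.58 RPKM with 1808 and 1816 bp. At Kit, Mpo and Irf8 the cover within 2 kb of the start moved by less than 200 bp. The window of Gfi1 was full in both libraries and could not show a gain. Over the gene and 2 kb on each side, 7151 and 7909 bp were covered at Gfi1 and 3551 and 3884 bp at Kit. By the same measure Mpo had 4880 and 4461 bp and Irf8 2321 and 1816 bp. Hpgd, the prostaglandin dehydrogenase, was among the 10 genes with the largest negative RNA difference, at 208 and 20.8 RPKM, with 2496 and 2630 covered bp. Of these 10 genes 8 had a listed start, with differences in cover from −219 bp at Gpr65, a proton-sensing receptor, to 197 bp at Spint2, a protease inhibitor. Csn2, a casein gene with the largest difference, had 666 and 0 reads and no peak near its start in either library. Igf2bp3 and Wfdc17, given above, are the exceptions with a loss of 500 bp or more among all genes at least 2-fold lower.

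The enzymes that write, remove and read the mark were measured in the same RNA. Of 17 genes of the methyltransferase complexes, 8 of the demethylases and 14 of readers of H3K4me3, none was 2-fold higher or lower on the measured scale of these 2 libraries. Setd1a, a catalytic subunit of COMPASS, stood at 33.3 and 38.5 RPKM, Kmt2a at 14.8 and 10.0 RPKM, and the demethylase genes Kdm5a at 17.4 and 14.7 RPKM, Kdm5b at 11.8 and 7.05 RPKM and Kdm5c at 53.7 and 45.5 RPKM. At Setd1a 3098 and 2360 bp were covered, a loss of 738 bp. It was the only change of 500 bp within 2 kb of a listed start among these lists. Over the gene and 2 kb on each side, larger differences were found both ways. Chd1, a reader without a listed start, had 5945 and 9237 bp by that measure, and Dido1, another reader, 13200 and 11203 bp. Kdm5b had 2203 and 1889 covered bp. RNA levels of enzymes say nothing of their activity, which was not measured.

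Other gene lists gave the following counts against the same 2.36% higher and 1.92% lower of all measured genes. Of 22 measured hypoxia and HIF targets 7 were 2-fold higher and 0 lower, and of 17 NRF2 targets 5 and 0. The median difference in cover was 16 bp in the first list and 18 bp in the second. Bnip3, a mitophagy receptor, stood at 15.8 and 107 RPKM with 3501 and 3380 covered bp, and Nqo1, a quinone reductase, at 3.14 and 9.72 RPKM with 1918 and 1505 bp. Me1, the malic enzyme, was the NRF2 target with a gain of 500 bp, with 904 and 1454 bp at 9.13 and 19.4 RPKM. Of 13 monocyte and macrophage genes measured 5 were higher and 1 lower, and 2 gained 500 bp, Ccr2 and F13a1, a transglutaminase of the clotting system, with 522 and 1113 bp at 4.64 and 20.9 RPKM. Of 10 mast cell and basophil genes 4 were higher and 0 lower, with gains at Il4 and Ms4a2 and a loss at Cma1. Of 9 primary granule genes 2 were lower, Mpo and Prtn3, and of 15 stem, progenitor and HOXA9 genes 4 were lower. In the latter list no gene changed by 500 bp in cover within 2 kb of a listed start. Of 15 cytosine methylation genes 1 was lower, Dnmt3b, with 1488 and 1508 bp at 2.54 and 0.681 RPKM. Tet2, a cytosine dioxygenase, stood at 12.8 and 6.45 RPKM with 3240 and 3419 bp.

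Genes of other lineages served as a check on the cells. All 8 myeloid progenitor markers reached 1 RPKM and had covered bases at the gene in both libraries, with a summed RNA of 3630 RPKM untreated and 1722 RPKM with vitamin C. Of 5 mast cell and basophil markers 4 did so, summing to 1974 and 2648 RPKM, with Fcer1a at 0 and 0.0420 RPKM. No gene of the short marker sets for B, T and NK cells, fibroblasts, neurons and hepatocytes reached 1 RPKM. In the longer gene lists of these lineages some members did: 2 of 15 T and NK cell, 2 of 11 fibroblast and stromal, 1 of 12 neuron and 3 of 12 hepatocyte genes, and 0 of 12 B cell genes. The beta-globin genes Hbb-bt, at 967 and 1071 RPKM, and Hbb-bs, at 340 and 380 RPKM, were measured too, and reads may be shared between these near-identical copies. Both had covered bases at the start, 3540 and 3086 bp at Hbb-bt and 835 and 772 bp at Hbb-bs. Thy1, a surface protein of stromal and lymphoid cells, stood at 292 and 429 RPKM, and Lck, a kinase of T cells, at 4.21 and 4.28 RPKM. The RNA thus holds single genes of other lineages beside the myeloid ones. Of all 17492 genes with a listed start 55.5% had a peak there in both libraries. Among T and NK cell genes with a listed start 0 of 12 did so, among fibroblast and stromal genes 0 of 6 and among hepatocyte genes 1 of 8. A peak stood at the start in both libraries at 3 of 8 B cell genes, 4 of 10 neuron genes and 8 of 19 homeobox and forkhead genes. Vpreb1, a surrogate light chain gene of B cells, was among these at 0.323 and 0.352 RPKM, and Tubb3, a neuronal tubulin gene, at 1.34 and 0.438 RPKM with 1627 and 954 covered bp. Lhx2, a homeobox gene, had 2059 and 1504 covered bp, and Pax6, another, had 1598 and 1293 bp, both under 0.01 RPKM. At these 2 genes the mark was listed in both libraries with almost no RNA in either. Mast cell and basophil markers were summed higher and myeloid progenitor markers lower with vitamin C. Every gene of each set moved the way of its sum. Cpa3, at 1863 and 2488 RPKM, made up most of the first sum, and Ctsg, at 2101 and 1136 RPKM, most of the second. The part of these markers in the H3K4me3 differences was not tested.

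What the single-library peaks share beyond width was read from the other lists of the same cells. H3K27ac, found at promoters and enhancers in use, overlapped 73.7% of shared and 44.0% of single-library peaks untreated, and 71.6% and 40.5% with vitamin C. Wider peaks meet more intervals, so peaks of at most 400 bp were compared too: 45.5% and 42.0% untreated, and 43.3% and 36.2% with vitamin C. Over all widths, enhancer-associated H3K4me1 overlapped shared and single-library peaks about equally, 65.0% and 63.4% untreated and 45.3% and 43.8% with vitamin C. Among peaks of at most 400 bp its shares were higher for single-library peaks. They were 59.6% of shared and 63.3% of single-library peaks untreated, and 40.1% and 43.1% with vitamin C. The H3K4me1 list itself covered 183 Mb untreated and 108 Mb with vitamin C. PU.1, a myeloid transcription factor, overlapped 40.6% (40.1 to 41.1) and 20.4% (19.2 to 21.6) untreated and 21.9% (21.6 to 22.4) and 10.4% (9.65 to 11.1) with vitamin C, from lists of 61611 and 23522 intervals. For PU.1 the intervals of shared and single-library peaks lie apart in both libraries. Among peaks of at most 400 bp its shares were 25.4% and 19.5% untreated and 13.9% and 9.72% with vitamin C.

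Runx1, a transcription factor of blood stem and progenitor cells, lay almost wholly within H3K4me3. Of its 3908 untreated intervals 93.0% overlapped an untreated H3K4me3 peak, and of 6250 with vitamin C 95.2% overlapped a vitamin C peak. Runx1 overlapped 10.3% of shared and 0.459% of single-library peaks untreated, and 16.8% and 0.682% with vitamin C. Among peaks of at most 400 bp the contrast was smaller, 2.92% and 0.478% untreated and 4.28% and 0.762% with vitamin C. Nearly all Runx1 intervals were thus on shared peaks. The sharing of H3K4me3 between the conditions, 90.5% and 85.8%, was close to that of H3K27ac, 86.6% and 88.8%, and above that of H3K4me1, 41.1% and 57.5%.

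The clearest difference between the single-library peaks of the 2 conditions was in the listed regions of changed cytosine methylation. These lists, called deMR, iMR and iHR in their names, hold positions only, and neither their direction nor the libraries compared were stated. Regions of the deMR list from whole-genome bisulfite sequencing (WGBS) overlapped 349 of the 6895 peaks found with vitamin C alone, 5.06% (4.56 to 5.61), and 35 of the 4357 found untreated alone, 0.803% (0.560 to 1.12). Shared peaks stood between, at 3.05% untreated and 3.26% with vitamin C. Among peaks of at most 400 bp the shares were 3.26% with vitamin C alone (2.79 to 3.78) and 0.675% untreated alone (0.433 to 1.00), beside 1.75% and 1.14% of shared peaks. The intervals of the single-library peaks of the 2 conditions did not overlap in either comparison. They take peaks of 1 library in each condition as independent, so this is no test between conditions.

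Seen from the regions, 350 of 6496 WGBS deMRs, 5.39%, touched a vitamin C-only peak and 35, 0.539%, an untreated-only peak. Any vitamin C peak was touched by 26.6% of them and any untreated peak by 20.3%. Regions of the MeDIP deMR list overlapped 0.870% (0.665 to 1.12) of vitamin C-only and 0.207% (0.0945 to 0.392) of untreated-only peaks. Regions of the hMeDIP iHR list, from hydroxymethylated DNA, overlapped 1.84% (1.54 to 2.19) and 0.757% (0.522 to 1.06). For the WGBS iMR list the shares were 0.551% (0.390 to 0.756) and 0.321% (0.176 to 0.539), whose intervals overlap. The MeDIP iMR list gave 0.131% (0.0597 to 0.248) and 0.0918% (0.0250 to 0.235). A further MeDIP list, called mutant iMR here, gave 0.754% (0.564 to 0.988) and 0.413% (0.245 to 0.652). In both the intervals overlap. The order, vitamin C-only above untreated-only, was the same in all of these lists.

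**Figure D5:**
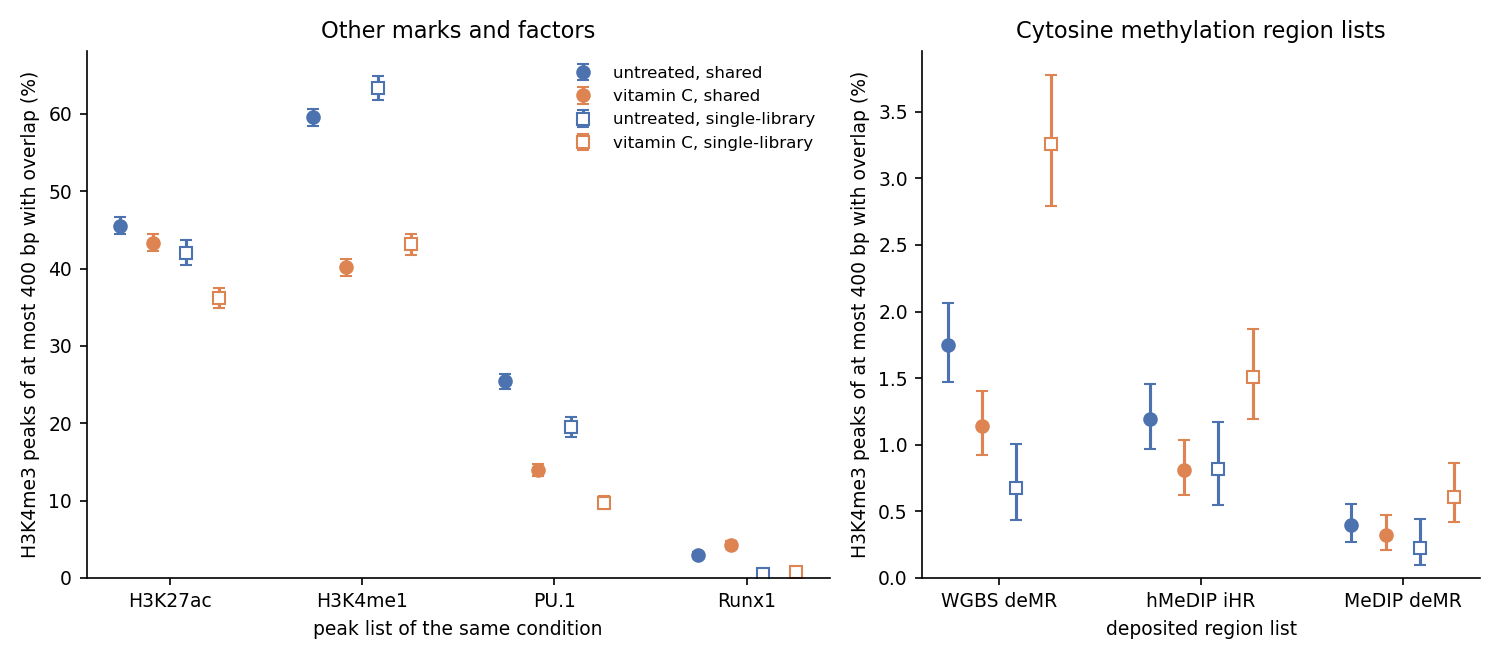
Percentage of H3K4me3 peaks of at most 400 bp that overlap by 1 bp the peak lists of the same condition (left) and the deposited methylation region lists (right), for shared peaks (filled circles) and single-library peaks (open squares); bars are exact 95% intervals. Vitamin C-only peaks overlap WGBS deMRs most often, 3.26%, and untreated-only peaks least often, 0.675%.

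Genes near the single-library peaks were set against the RNA once more, taking the nearest listed start within 50 kb. The 2111 measured genes nearest to vitamin C-only peaks were 2-fold higher in 3.98% and lower in 2.56%. The 1383 nearest to untreated-only peaks were higher in 3.18% and lower in 2.82%, and genes nearest to shared peaks of either list in 2.32% to 2.33% and 1.88% to 1.89%. Genes with 3 or more net vitamin C-only peaks, 161 in number, were higher in 4.35% and lower in 2.48%, beside 1.75% and 1.55% of the 5670 genes with a net of 0. The 133 genes with 2 or more net untreated-only peaks were higher in 3.01% and lower in 5.26%. The shares near single-library peaks were above those near shared peaks in both directions and for both libraries. The sets overlap in genes, and this difference was not tested.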

How the data were processed

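ChIP-seq for H3K4me3 (a Cell Signaling antibody) and polyA RNA-seq were done in 1 untreated and 1 vitamin C library each. The submitters' processing notes name CASAVA 1.8.2, MACS2 2.1.0.2, SAMtools 0.1.16, BWA and Picard, with mm10 as the build, and give no role or order. Peak-calling settings, the use of inputs and the annotation behind the RNA table were not given in the sources used here. Each histone peak has a p-value or a q-value, deposited by the authors without saying which. For PU.1 and Runx1 the authors deposited an undefined score, which was not used. The RNA tables hold a read count and an RPKM value per gene, both deposited by the authors.

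Overlaps, covered bases and shares were computed with pandas 2.3.3, numpy 2.4.6 and scipy 1.17.1, and figures were drawn with matplotlib 3.10.9. The interval functions were tested on 3000 simulated intervals, and 7 of 7 checks passed. Starts and sequences were taken from RefSeq on GRCm38.p6 (the mm10 assembly), whose table lists a start for 17492 of 21900 protein-coding genes. Where a gene has several starts, the one with the most covered bases was used, and genes without a listed start, among them Egr1, Spi1 and Kdm5a, were read over the gene span with 2 kb on each side. RNA values were matched for 16255 genes with a start. Genes with 1 RPKM or more in 1 or both libraries count as measured, and 2-fold is taken on the log2(RPKM + 0.5) scale, which understates the change of low genes. The ratio of RPKM has an exact binomial interval from the reads. ChIP-seq depth was unknown.

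By rule the text draws on the 5 strongest peaks, the 5 strongest single-library peaks at a start and the 5 widest single-library peaks per library, the 10 largest RNA changes and the 10 largest changes in cover in each direction, a fixed gene set, and members of 20 gene lists, up to 4 per list by RNA change and every member marked in 1 library. Genes and peaks named beside these, the widest of all peaks included, were chosen after their values were seen. The peaks, lists and rules were chosen with earlier results of these data known. Other overlaps, windows, values and pseudocounts were tried as alternatives. A marker result is not reported here.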

Additional observations from a re-analysis of the deposited data

How the results depend on the processing

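Of 75 alternative values for 35 results, 33 stayed within the limit set for their kind, 41 moved further and 1 changed sign. The limit was 1.5 times for a count and the 95% interval of the main share or median for other values. With peaks of a value of at most 1e-10, median widths were 952 bp untreated and 884 bp with vitamin C, shared peaks 94.2% and 90.4%, and peaks at a start 30.8% and 30.1% of shared and 6.11% and 4.71% of single-library peaks. Sharing was still read against all peaks of the other list, so these shares do not compare 2 strict lists. With peaks within 1 kb joined, widths were 1187 and 1073 bp and shared peaks 92.5% and 87.4%. An overlap of 50% of both peaks left 75.6% and 71.4% shared. Within 2.5 kb of a start lay 32.7% and 32.3% of shared and 10.9% and 9.05% of single-library peaks, and the RPKM medians of genes marked in both were 11.4 and 11.5. For peaks of at most 400 bp, an alternative added after seeing the data, 10.5% and 10.3% of shared peaks lay at a start, H3K27ac overlapped 45.5% and 43.3% of shared and 42.0% and 36.2% of single-library peaks, and WGBS deMRs 1.75% and 1.14% of shared and 3.26% of vitamin C-only peaks. By peak centre H3K27ac overlapped 67.3% and 65.2% of shared and 40.9% and 37.0% of single-library peaks, and WGBS deMRs 0.580% and 0.576% of shared, 0.436% of untreated-only and 2.22% of vitamin C-only peaks. The median log2 change of genes marked in both was −0.024 over all genes and −0.032 at 5 RPKM. That of genes marked untreated alone was −0.21 at 5 RPKM over 7 genes, against 0.02 over 11, and that of genes marked with vitamin C alone was 1.69 over 5, against 0.26 over 12. With 5 kb either side the median gain of higher genes was 54 bp, and 8.04% of genes that gained cover and 3.66% of those that lost it were higher. Joining left 34468 and 36508 peaks, and 2.5 kb gave 10024 genes marked in both. The cause of these shifts was not tested. No paired analysis was possible because each group held 1 library. ChIP-seq depth was unknown, so its limit on narrow, weak peaks was not tested.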

Other observations

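Every autosome had more H3K4me3 peaks with vitamin C, with ratios up to 1.11 on chromosome 6. The X chromosome had 1240 peaks untreated and 1213 with vitamin C, a ratio of 0.978, where the ratio of peak numbers was 0.888 for H3K27ac and 0.449 for H3K4me1. On chromosome 17 the median log2 change in RNA over 551 measured genes was 0.28, beside −0.10 to 0.09 on the other autosomes, while the covered H3K4me3 length had a ratio of 1.01. Fcgr2b, an inhibitory IgG receptor gene next to Fcgr3, had 5 vitamin C-only peaks nearby and 0 untreated-only, at 58.5 and 89.7 RPKM.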
